A study of Mus musculus with 6 samples.

Results

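The genes described here make cholesterol and fatty acids. They are 31 genes chosen by name from the deposited count table of 54532 genes, and all 31 had enough counts to enter the test, which covered 13705 genes. They comprise 17 enzymes of sterol synthesis, 10 enzymes of fatty acid synthesis, and 4 regulators or carriers (Insig1, Srebf1, Srebf2 and Stard4). The 3 KO libraries came from Ccrl2-KO mice and the 3 WT libraries from WT mice, all made from mesenchymal stromal cells (MSCs) of the alveolar bone around the tooth roots. MSCs grow attached to plastic and are a source of osteoblasts and fat cells, and Ccrl2 is a chemerin-binding receptor. Per the labels, both groups were induced towards bone under inflammation caused by TNFα. The count columns, however, carry the word Ctrl, which the labels leave unexplained. Whether it marks cells without TNFα is not known here, and the libraries form no other groups than KO and WT. The labels give neither age nor strain of the mice. The labels call the replicates biological and do not tie them to single mice, so the p-values may measure only the spread between cultures.

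Cholesterol is built from acetyl-CoA through mevalonate, isoprenoid units, squalene and lanosterol. Fatty acid synthesis starts from the same acetyl-CoA, which is carboxylated, condensed into saturated chains, and then elongated and desaturated. Both branches are driven by SREBP transcription factors, which are held in the endoplasmic reticulum by INSIG proteins when sterol is plentiful and released to the nucleus when it is scarce. SREBP2, from Srebf2, acts mainly on sterol genes, and SREBP1c, from Srebf1, mainly on fatty acid genes. Srebf1 is itself a target of the oxysterol receptor LXR. In stromal cells these pathways supply membrane for growth and the fatty acids stored during fat formation.

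Library totals lay between 16225227 and 18616433 counts in KO and between 16114974 and 18244287 in WT. The Ccrl2 transcript had 0 counts in each KO library and 4, 3 and 0 counts in WT replicates 1, 2 and 3, so it gives little check of the labels. KO replicate 2 differed from the remaining libraries, with 16428 genes with a count against 18928 to 19372 elsewhere and 2.32% mitochondrial counts against 1.09% to 1.56%. The 12 stromal markers were all tested, Col1a1 with 351353 to 650136 counts in KO and 609823 to 722879 in WT. Of the fat cell markers, Cidec, Lep and Retn had 0 counts in every library and Adipoq, Plin1 and Cfd at most 1. The remaining fat cell markers were present, with 262 to 575 counts per library for Cebpa, 116 to 486 for Fabp4, 136 to 230 for Pparg and 17 to 108 for Lipe. Macrophage markers were present and lower in KO. Of 20 tested, 16 were called lower, against 2.31% of all tested genes. The summed level of the 20 was 112 to 118 CPM (counts scaled by the library total) in KO and 420 to 483 CPM in WT. In bulk RNA, fewer cells of a type and less RNA per cell cannot be told apart, and the part of these markers in the results that follow was not tested.

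Differences between the genotypes were small in both branches, and the gene that passed the test belongs to the fatty acid branch. One gene of the 31, the desaturase gene Scd2, fell in KO at an adjusted p under 0.05, which is 3.23% of them, against 2.31% of all tested genes called lower and 2.67% called in either direction (edgeR quasi-likelihood test, Benjamini-Hochberg adjustment over all tested genes). This share is near the background. None was called higher, against 0.365% of all tested genes. DESeq2 and limma-voom also called Scd2 alone. At an unadjusted p under 0.05, 6 of the 31 genes were lower and 0 higher (background 8.77% lower and 5.68% higher), namely Mvk, Mvd, Scd1, Scd2, Acaca and Acly. The KO and WT libraries did not overlap in 7 genes that were lower in KO (22.6% of the 31, background 11%) and in 1 gene that was higher, Ebp (3.23%, background 9.9%, and 20.9% in either direction). The median log2 fold change (KO over WT) was -0.27 for the fatty acid enzymes, -0.17 for the regulators and carrier and -0.04 for the sterol enzymes, beside 0.02 for all tested genes. Of all tested genes, 47.8% had negative log2 fold changes, the share beside which counts of signs below are to be read. Counts of genes called, or at an unadjusted p under 0.05, are likewise to be read beside the background shares given here.

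**Figure D1:**
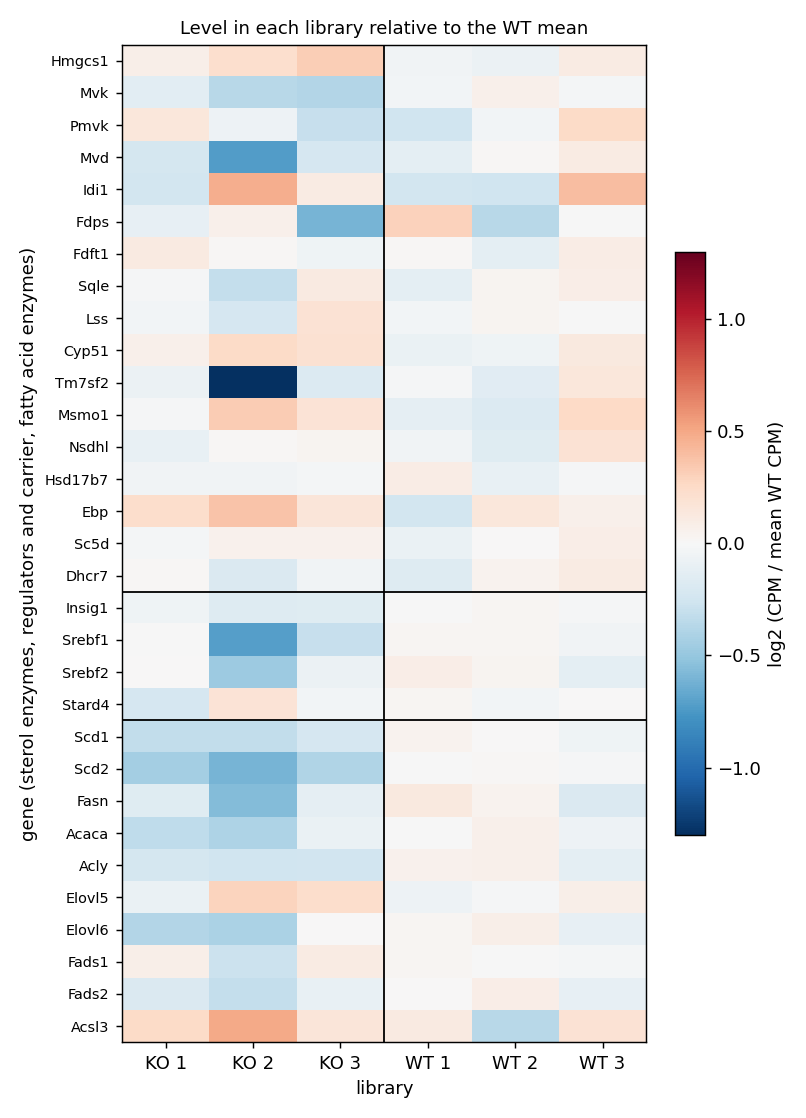
Level of each of the 31 genes (rows) in each library (columns, KO left of WT) as log2 of CPM over the mean WT CPM, with lines between sterol enzymes, regulators and carrier, and fatty acid enzymes. Scd2, Scd1, Acly and Acaca lie below the WT mean in all 3 KO libraries, as do Fasn, Fads2, Insig1, Srebf1, Mvk, Mvd, Tm7sf2 and Hsd17b7. The sterol rows and the fatty acid rows each hold both signs, and Tm7sf2 in KO replicate 2 is the lowest value (-1.31).

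The sterol enzymes held both signs. Of 17 tested, 0 were called by edgeR, DESeq2 or limma-voom, 2 were lower at an unadjusted p under 0.05 with each of these tools, 10 had negative and 7 positive log2 fold changes, and the values ran from -0.44 to 0.23. The 95% intervals of 16 of the 17 lay within 2-fold in either direction, and those of 13 within 1.5-fold. The exception was Tm7sf2, with 35 to 108 counts per library and an interval from -1.14 to 0.26.

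In the mevalonate segment, Hmgcs1 and Mvk differed in sign. Hmgcs1 makes HMG-CoA, the precursor of mevalonate. It stood at 136, 149 and 160 CPM in KO replicates 1, 2 and 3, against 125, 122 and 139 CPM in WT replicates 1, 2 and 3 (log2 fold change 0.19 ± 0.11, SE, adjusted p = 0.439 by edgeR). KO replicates 2 and 3 lay above every WT library and KO replicate 1 did not, so the groups overlapped. Mvk, the kinase that phosphorylates mevalonate, had 51.0, 43.5 and 43.0 CPM in KO and 54.7, 58.5 and 54.8 CPM in WT (-0.31 ± 0.12, adjusted p = 0.252). Mvd, which decarboxylates the diphosphate to the isoprenoid unit, had 21.5, 15.2 and 21.7 CPM in KO and 23.1, 25.4 and 27.1 CPM in WT (-0.39 ± 0.16, adjusted p = 0.302). All KO libraries were below all WT libraries for both genes, and neither passed the test. Without KO replicate 2 the Mvd value was -0.25. Pmvk, the kinase between them, had a log2 fold change of -0.08 ± 0.20 and Idi1, the isomerase of the isoprenoid unit, one of 0.12 ± 0.22, each with overlapping groups. Fdps, which joins these units to farnesyl diphosphate, had only 44 to 76 counts per library (-0.21 ± 0.30, and -0.36 to -0.03 with single libraries left out). Its gene model overlaps other models on the same strand, and how shared reads were counted is not known, so its level is uncertain.

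Upstream sequences are shown for 4 genes, with positive and negative values and from each role, because Hmgcs1 holds the sterol regulatory element searched for and all 4 hold CCAAT. Of the 31 genes, 24 had a promoter in RefSeq's table (GRCm38.p6, 250 bases before to 50 after the start site), and the others were Fads1, Fdft1, Fdps, Scd1, Scd2, Sqle and Stard4. The bases before the start site are given 5′ to 3′ on the gene's strand for Hmgcs1 (chr13:119690101-119690350, plus strand), Mvk (chr5:114444019-114444268, plus strand), the regulator gene Insig1 (chr5:28071162-28071411, plus strand) and Fasn (chr11:120824548-120824797, minus strand). Capitals mark TCACNCCAC, a form of the sterol regulatory element to which SREBPs bind, and CCAAT, to which NF-Y binds, each on either strand.
Hmgcs1: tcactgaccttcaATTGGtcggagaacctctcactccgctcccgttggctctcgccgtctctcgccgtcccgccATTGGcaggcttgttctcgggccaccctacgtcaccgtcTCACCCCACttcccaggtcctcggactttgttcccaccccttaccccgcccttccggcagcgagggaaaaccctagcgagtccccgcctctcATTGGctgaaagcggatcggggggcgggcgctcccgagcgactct
Mvk: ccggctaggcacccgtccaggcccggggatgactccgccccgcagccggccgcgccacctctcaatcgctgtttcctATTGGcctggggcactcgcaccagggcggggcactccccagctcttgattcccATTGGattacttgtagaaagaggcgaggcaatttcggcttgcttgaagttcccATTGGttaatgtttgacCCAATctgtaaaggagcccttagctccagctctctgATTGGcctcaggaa
Insig1: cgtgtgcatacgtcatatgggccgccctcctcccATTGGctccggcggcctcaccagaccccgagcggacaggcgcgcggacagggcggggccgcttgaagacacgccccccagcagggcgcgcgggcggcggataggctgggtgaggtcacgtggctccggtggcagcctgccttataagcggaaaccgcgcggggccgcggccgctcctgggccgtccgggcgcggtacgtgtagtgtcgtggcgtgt
Fasn: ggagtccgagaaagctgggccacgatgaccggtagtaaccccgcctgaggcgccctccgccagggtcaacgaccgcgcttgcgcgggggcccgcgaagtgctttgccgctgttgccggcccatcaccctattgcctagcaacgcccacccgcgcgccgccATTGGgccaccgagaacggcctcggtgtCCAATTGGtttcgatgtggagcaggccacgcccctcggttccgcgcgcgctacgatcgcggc
TCACNCCAC was found in Hmgcs1, from position -137, and in no other of the 24 genes (4.17%), against 1.24% of all 32851 promoters in the table and 1.35% of the 10003 tested genes with one. Some genes have several promoters, and a gene was counted if any of them held the motif. Shares of all promoters count each promoter singly, so the shares of tested genes are the like comparison. CCAAT was found in all 14 sterol enzyme genes with a sequence, in 3 of 3 regulators and in 4 of 7 fatty acid enzymes, against 37.4% of all promoters and 43% of tested genes. Acaca was among the fatty acid enzymes without it. Its listed promoter (bases from chr11:84195188) lies inside its gene model, which starts at 84129672 on the plus strand. The search thus did not cover the start of that model. GGGCGG, an Sp1 motif, was in 13 of the 14 sterol enzymes and 3 of the 7 fatty acid enzymes (35.7% of all promoters, 69.5% of tested genes). The E-box CACGTG was in 5 of the 24 (20.8%), against 7.15% of all promoters and 11.8% of tested genes. Both strands were searched for each motif. In the Fasn stretch, 2 of the 3 CCAAT matches, on opposite strands, overlap. Both Hmgcs1, with a positive value, and Mvk, with a negative one, carry several CCAAT matches. A match describes letters only and shows no binding.

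From farnesyl diphosphate to lanosterol, the genes were close to level between the genotypes. Fdft1, squalene synthase, had a log2 fold change of 0.00 ± 0.11, Sqle, which oxidizes squalene, one of -0.08 ± 0.12, and Lss, which closes the sterol rings, one of -0.03 ± 0.13. Their 95% intervals lay within -0.36 and 0.25, and in each gene the groups overlapped. Fdft1 overlaps the cathepsin gene Ctsb on the opposite strand, and a strand-specific kit is not named in the labels, so some of its reads may belong there. Ctsb reached 13772 counts in a library, and Fdft1 had 888 to 1179.

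The genes that turn lanosterol into cholesterol held both signs. Cyp51, the lanosterol demethylase, stood at 131, 148 and 143 CPM in KO and at 118, 120 and 136 CPM in WT (0.15 ± 0.10, adjusted p = 0.507). Msmo1, the methyl sterol oxidase that acts after it, had 97.9, 124 and 112 CPM in KO and 91.1, 87.7 and 118 CPM in WT (0.15 ± 0.14). WT replicate 3 was the highest WT library for both genes, and the groups overlapped. Part of the Cyp51 reads may come from Akap9, whose gene model overlaps it on the opposite strand. Ebp, the sterol isomerase, had 37.0, 40.9 and 35.5 CPM in KO and 26.8, 35.2 and 33.1 CPM in WT (0.23 ± 0.14, adjusted p = 0.452), with every KO library above every WT library by a narrow margin. Without WT replicate 1 the Ebp value was 0.13. That of Msmo1 ranged from 0.06 to 0.28 with single libraries left out, lowest without KO replicate 2 and highest without WT replicate 3, and was 0.09 and 0.07 without WT replicates 1 and 2. The remaining members, Nsdhl, Hsd17b7, Sc5d and Dhcr7, all enzymes of the later steps, had values between -0.09 and 0.00 with standard errors of 0.10 to 0.15. Tm7sf2, a sterol reductase, had 5.08, 2.16 and 4.73 CPM in KO and 5.27, 4.84 and 5.92 CPM in WT (-0.44 ± 0.31). KO replicate 2 was far below the others there (-0.15 without it), and the gene overlaps Vps51 on the same strand.

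Srebf1, Srebf2, Insig1 and Stard4 had negative values that did not pass. All 4 regulators and carriers were tested, 0 were called by edgeR, DESeq2 or limma-voom, and at an unadjusted p under 0.05 there were 0 by edgeR and DESeq2 and 1 by limma-voom. Srebf1 stood at 159, 97.4 and 130 CPM in KO, against 162, 163 and 154 CPM in WT (-0.33 ± 0.16, adjusted p = 0.364). KO replicate 1 lay within the WT range and KO replicate 2 far below it. Without KO replicate 2 the value was -0.17, and without KO replicate 1 it was -0.52. Part of the reads may come from Rai1, which overlaps on the opposite strand. Srebf2 had 209, 150 and 198 CPM in KO and 221, 214 and 191 CPM in WT (-0.19 ± 0.14, adjusted p = 0.527), again with KO replicate 2 the lowest and overlapping groups. The Srebf2 value was -0.06 without KO replicate 2 and -0.29 without KO replicate 1. Insig1, the sterol sensor's anchor and itself an SREBP target, had 90.1, 83.0 and 83.8 CPM in KO and 92.9, 95.3 and 92.3 CPM in WT (-0.15 ± 0.10, adjusted p = 0.495). Its groups did not overlap, by a margin of 2.36% of the lowest WT value. Stard4, which carries cholesterol between membranes, had 38.3, 50.4 and 43.6 CPM in KO and 45.5, 43.5 and 44.95 CPM in WT (-0.04 ± 0.13), the KO libraries lying on both sides of WT.

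**Figure D2:**
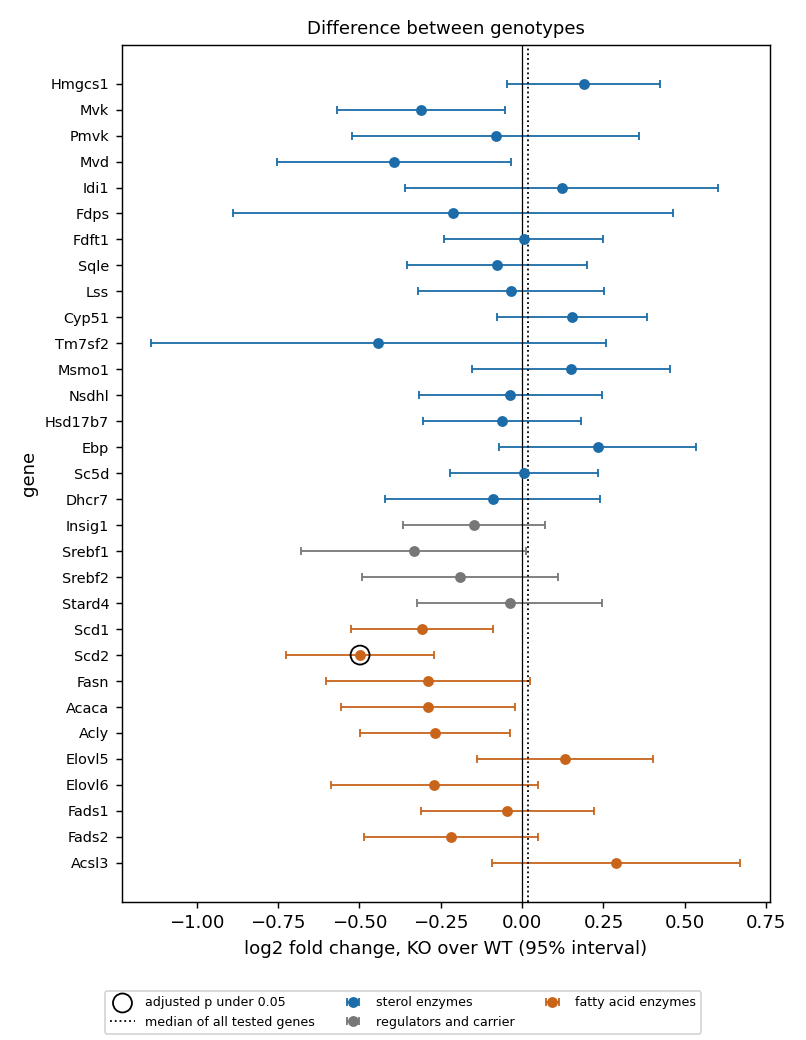
Log2 fold change, KO over WT, of each of the 31 genes with its 95% interval, by role, from the edgeR fit; the circle marks an adjusted p under 0.05 and the dotted line the median of all tested genes (0.02). Scd2 (-0.50) is the circled gene, and 8 of the 10 fatty acid enzymes lie left of 0, against 10 of the 17 sterol enzymes.

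Among the fatty acid enzymes 1 gene fell in KO, and most others had smaller negative values that did not pass. Of 10 tested, Scd2 was called lower, against 2.31% of all tested genes. At an unadjusted p under 0.05 by edgeR, 4 were lower and 0 higher (background 8.77% and 5.68%). The log2 fold changes of 8 were negative (background 47.8%). For 6 genes, Scd1, Fasn, Acaca, Acly, Elovl6 and Fads2, these lay between -0.31 and -0.22. Scd1 and Scd2 encode stearoyl-CoA desaturases, which turn saturated chains into oleate and palmitoleate. Scd2 fell to 804, 722 and 836 CPM in KO replicates 1, 2 and 3, against 1092, 1108 and 1085 CPM in WT (mean 787 ± 59.2 in KO and 1095 ± 12.1 in WT, SD, n = 3 each). The log2 fold change was -0.50 ± 0.10 (1.41-fold lower in KO, adjusted p = 0.0297, edgeR). The highest KO library was 22.9% below the lowest WT library. The log2 fold change of Scd2 stayed between -0.54 and -0.44 with single libraries left out. Its adjusted p then ranged from 0.0103, without KO replicate 2, to 0.225, and the call was lost without any other library (0.056 without KO replicate 1, 0.105 without KO replicate 3, and 0.182, 0.225 and 0.0797 without WT replicates 1, 2 and 3). Among cell type markers, the summed level of 10 fat cell markers was 43.9 to 55.3 CPM in KO and 63.7 to 65.8 CPM in WT, with Cidec, Lep and Retn at 0. Without Fabp4, which macrophages express too, the sum was 47.7, 29.3 and 40.8 CPM in KO replicates 1, 2 and 3 and 43.5, 45.4 and 37.1 CPM in WT, with overlap (Fabp4 was set aside after its values were seen). The macrophage sum was lower in the same KO libraries. Their part in the Scd2 difference was not tested.

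Scd1 had a smaller difference than its neighbour. Scd1 had 142, 141 and 152 CPM in KO and 183, 177 and 170 CPM in WT, without overlap (-0.31 ± 0.10, adjusted p = 0.174), and did not pass. Both genes lie on chromosome 19 in a cluster of 4, Scd2 at 44293676 to 44306864 on the plus strand and Scd1 at 44394451 to 44407709 on the minus strand (coordinates of the deposited table, GRCm38). Between them lies Scd4, with 7 to 18 counts per library, and beyond Scd2 lies Scd3, with 0 to 1. Per kilobase of gene length, Scd2 was 5.03, 4.53 and 4.88 times as high as Scd1 in KO replicates 1, 2 and 3, against 5.30, 5.55 and 5.66 times in WT. The ratio was lower in every KO library (exact permutation test, two-sided p = 0.1, the smallest that 3 against 3 libraries allow). The genes are similar in sequence, and how shared reads were counted is not known.

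The 3 enzymes that make the saturated chain were lower by like amounts, without passing. Acly, which cuts citrate to cytosolic acetyl-CoA, had 147, 144 and 145 CPM in KO and 179, 180 and 158 CPM in WT (-0.27 ± 0.10, adjusted p = 0.271). Acaca, acetyl-CoA carboxylase, had 44.1, 42.1 and 52.2 CPM in KO and 55.4, 58.1 and 52.9 CPM in WT (-0.29 ± 0.12, adjusted p = 0.309). Both had every KO library below every WT library, Acaca by 1.39% of the lowest WT value. Fasn, the fatty acid synthase, had 283, 214 and 291 CPM in KO and 344, 324 and 277 CPM in WT (-0.29 ± 0.14, adjusted p = 0.385), and its groups overlapped at WT replicate 3. Without KO replicate 2 its value was -0.16.

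**Figure D3:**
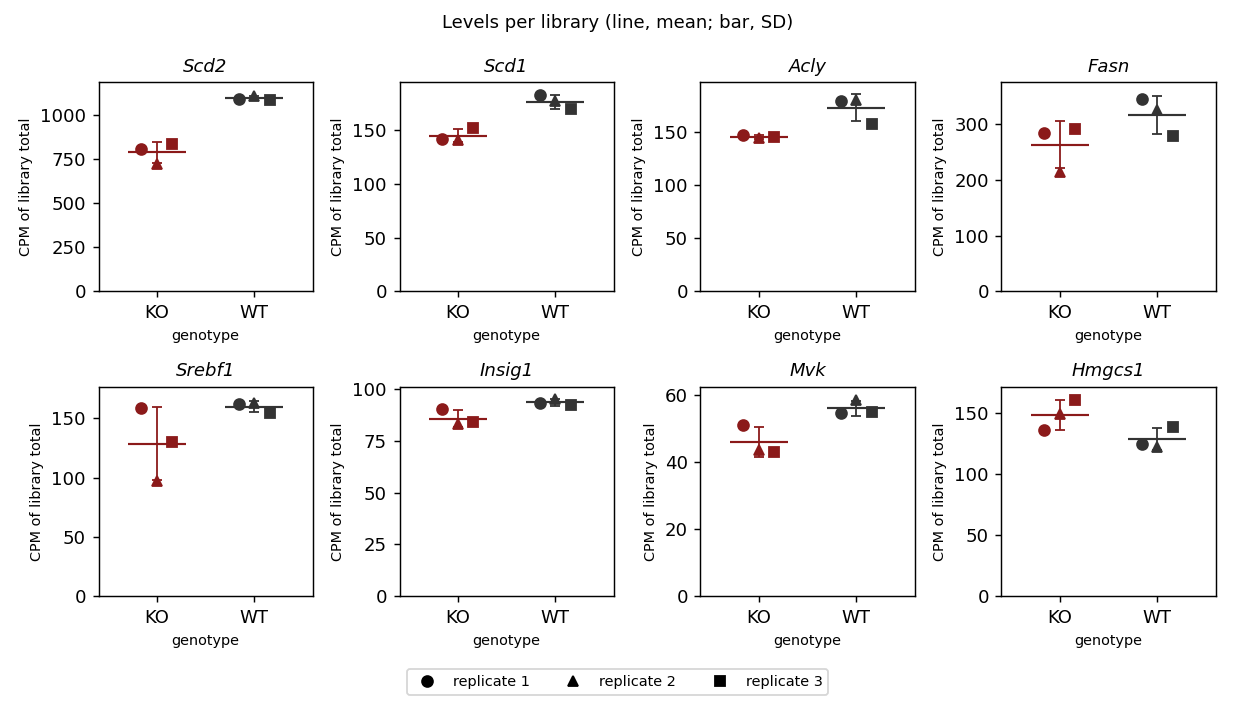
Level of 8 genes in each library in CPM of the library total, KO left of WT; symbols are replicates, horizontal lines means and bars SD (n = 3 each). Scd2, Scd1, Acly, Insig1 and Mvk do not overlap between the genotypes, Fasn and Srebf1 are lowest in KO replicate 2 (214 and 97.4 CPM), and Hmgcs1 is higher in KO on average.

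Elongases and polyunsaturated fatty acid desaturases were mixed. Elovl6, which extends saturated chains, had 27.7, 27.1 and 36.3 CPM in KO and 36.8, 37.9 and 33.5 CPM in WT (-0.27 ± 0.14), whereas Elovl5, which extends polyunsaturated chains, had 62.5, 80.6 and 77.6 CPM in KO and 63.1, 65.5 and 69.7 CPM in WT (0.13 ± 0.12). The groups overlapped for both. Without KO replicate 3 the Elovl6 value was -0.42, and that of Elovl5 was 0.23 without KO replicate 1 and 0.06 without KO replicate 2. Fads2 and Fads1, the desaturases of the polyunsaturated chain, lie on chromosome 19 on opposite strands. Fads2 had a log2 fold change of -0.22 ± 0.12 and Fads1 one of -0.05 ± 0.12. For Fads1, the KO libraries were at 121, 94.7 and 124 CPM and those of WT at 117, 115 and 114 CPM, so KO replicates 1 and 3 were above WT and KO replicate 2 below it. Acsl3, which activates fatty acids to their CoA esters, was the other fatty acid gene with a positive value (0.29 ± 0.17, adjusted p = 0.457), with 22.6, 26.8 and 21.2 CPM in KO and 20.6, 14.8 and 21.5 CPM in WT. Without KO replicate 2 the Acsl3 value was 0.18, and without WT replicate 2 it was 0.14. The Acsl3 gene model overlaps Utp14b on the same strand, and how shared reads were counted is not known.

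The branches were also set against each other library by library. The median log2 ratio to the WT mean over the 10 fatty acid enzymes was -0.21, -0.32 and -0.09 in KO replicates 1, 2 and 3, against 0.03, 0.03 and -0.06 in WT replicates 1, 2 and 3. Over the 17 sterol enzymes it was -0.03, 0.01 and 0.03 in KO, against -0.08, -0.05 and 0.11 in WT. For the fatty acid enzymes every KO library was below every WT library, and for the sterol enzymes the groups overlapped. The sterol median minus the fatty acid median was 0.18, 0.33 and 0.12 in KO, against -0.11, -0.08 and 0.17 in WT, and WT replicate 3 lay within the KO range. No test was made of these medians, since the genes were chosen with earlier results known.

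KO replicate 2 held many of the extreme values. It was the lowest library in 8 of 10 fatty acid enzymes, 3 of 4 regulators and carriers and 5 of 17 sterol enzymes, and the highest in 2, 1 and 4 of them. Over all tested genes it was the lowest in 31.8% and the highest in 31.6%. Without it, the median of the fatty acid enzymes was -0.18 and that of the sterol enzymes -0.04, with Scd2 again the called gene.

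Per kilobase of gene length, Scd2 led the 31 genes in both genotypes. It stood at 144 ± 10.9 RPKM (CPM per kilobase of gene length) in KO and 201 ± 2.21 RPKM in WT (SD, n = 3 each), and made up 45.2% to 46.2% of the summed level of the 10 fatty acid enzymes in KO and 50.6% to 52.3% in WT. In WT, Scd1 (36.5 ± 1.34), Fads1 (33.4 ± 0.518) and Acly (32.6 ± 2.40) came next, and Scd1 differed from Fads1 beyond their spread while Fads1 and Acly did not. In KO, Fads1 (32.8 ± 4.72), Hmgcs1 (32.3 ± 2.69) and Cyp51 (31.9 ± 2.02) came after Scd2, within their spread of Scd1 (30.0 ± 1.25). Cyp51 and Hmgcs1 led the sterol enzymes in both groups, with 28.3 ± 2.29 and 28.0 ± 1.96 in WT. Srebf1 and Srebf2 were at like levels per length, 22.8 ± 5.45 and 25.9 ± 4.36 in KO and 28.3 ± 0.848 and 29.0 ± 2.20 in WT.

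Other lipid genes were taken from lists made by textbook role. Among 18 tested genes of sterol efflux, storage and oxysterols, the median log2 fold change was -0.10. In this list 1 gene was called lower and 0 higher, against 2.31% and 0.365% of all tested genes. The called gene was Abca1, which exports cholesterol to lipid-poor apolipoprotein and is an LXR target. Abca1 fell to 50.3, 52.3 and 47.9 CPM in KO, against 90.3, 86.3 and 69.6 CPM in WT (-0.73 ± 0.13, adjusted p = 0.0134), without overlap. The call was lost without KO replicate 3 (adjusted p = 0.0895) or WT replicates 1 or 2 (0.102 and 0.0983). Macrophages express Abca1 too, and their markers were lower in the same libraries. The part of macrophages in the Abca1 difference was not tested. Lrp1, a receptor for lipoprotein remnants, had 1890, 1543 and 2026 CPM in KO and 3153, 2868 and 1916 CPM in WT, with overlap (-0.57 ± 0.18, adjusted p = 0.182).

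The 5 remaining lipid lists had 0 genes called by edgeR with TMM scaling, the filter on low counts and all libraries. In other fatty acid synthesis, 25 genes were tested, 1 was lower and 1 higher at an unadjusted p under 0.05, and DESeq2 called both. They were G6pdx, which supplies the NADPH that synthesis uses (48.5, 36.3 and 51.7 CPM in KO and 68.8, 63.1 and 67.0 CPM in WT, -0.57 ± 0.14, adjusted p = 0.0663), and Elovl7, an elongase at low level (4.30, 6.72 and 3.76 CPM in KO and 1.39, 2.11 and 2.69 CPM in WT, 1.23 ± 0.34, adjusted p = 0.109). Neither gene's groups overlapped. With edgeR, G6pdx was called without a filter on low counts (adjusted p = 0.00295) and without KO replicate 2 (0.0295), and Elovl7 without a filter (0.0124). In triglyceride synthesis and lipid droplets, 14 were tested, with 2 lower and 1 higher at an unadjusted p under 0.05. DESeq2 called Mgll, a lipase of monoacylglycerols, higher (90.97, 73.7 and 91.5 CPM in KO and 59.1, 61.6 and 51.9 CPM in WT, 0.55 ± 0.13, adjusted p = 0.0508 by edgeR, 0.0403 with library totals as the scaling, 0.00228 without a filter and 0.00138 without KO replicate 2), and Lpin1, a phosphatidate phosphatase, was at -0.39 ± 0.15 (adjusted p = 0.265).

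In SREBP processing, 7 genes were tested, 4 had positive values, and 1 was lower at an unadjusted p under 0.05, Mbtps1, the protease that makes the initial cut in SREBPs (146, 132 and 144 CPM in KO and 170, 167 and 163 CPM in WT, -0.27 ± 0.10, adjusted p = 0.243). Rnf139, a ubiquitin ligase of the endoplasmic reticulum, was at 0.23 ± 0.13. Among 14 other genes of sterol and isoprenoid synthesis, 1 was lower at an unadjusted p under 0.05, the reductase gene Cyb5r3 (-0.32 ± 0.11, adjusted p = 0.235), and Fntb, a farnesyltransferase subunit, was at -0.26 ± 0.14. Of 17 tested genes of fatty acid oxidation, 12 had positive values, and 1 was higher at an unadjusted p under 0.05, Decr1, a reductase for unsaturated chains (0.40 ± 0.17, adjusted p = 0.315), with Slc25a20, the mitochondrial carnitine carrier, at 0.24 ± 0.13. The medians were 0.08, 0.02 and 0.11 in these lists, 0.03 in other fatty acid synthesis and -0.08 in triglyceride synthesis and lipid droplets. DESeq2 and limma-voom called 0 genes in SREBP processing, other sterol and isoprenoid synthesis and fatty acid oxidation.

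**Figure D4:**
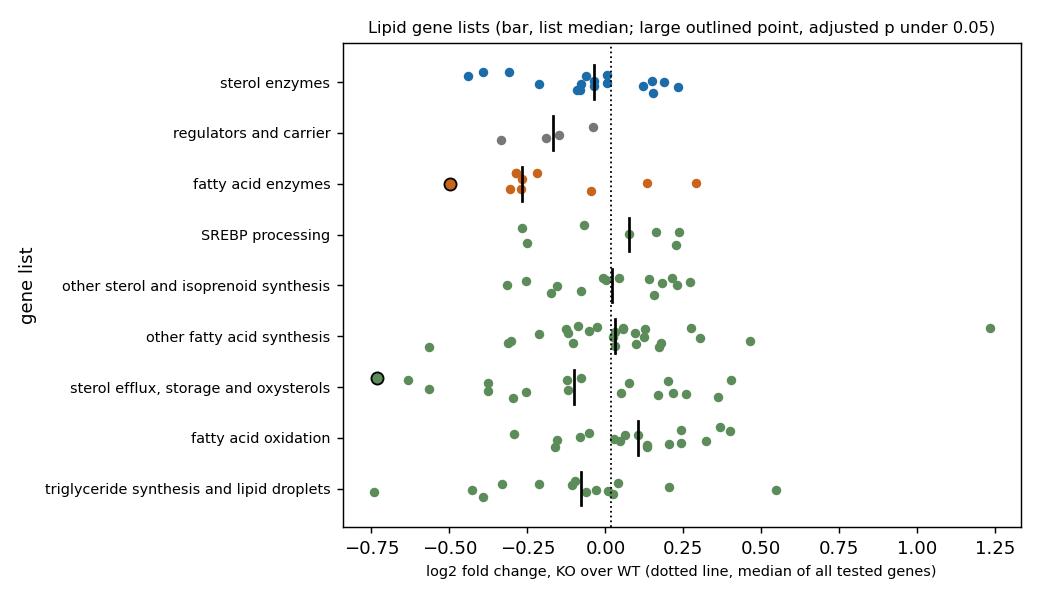
Log2 fold change, KO over WT, of each tested gene in 9 lipid gene lists; bars are list medians, outlined points have an adjusted p under 0.05 (Scd2 and Abca1), and the dotted line is the median of all tested genes. The fatty acid enzymes have the lowest list median (-0.27), and fatty acid oxidation the highest (0.11).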

How the data were processed

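Whole-number counts per gene, not normalized, were deposited by the authors for all 6 libraries in 1 table with gene names, coordinates as well as the length of each gene (in bases, another kind of value, used for RPKM). RNA was extracted with TRIzol and libraries made with an NEBNext Ultra kit, per the labels' protocols. HISAT2, StringTie, SAMtools and the mm9 build are named in the submitters' processing notes. No read counter is named there. GENCODE M21 (GRCm38) holds 54409 of the identifiers, 53499 of them (98.3% of these) with equal start and end, and coordinates are called GRCm38 for that reason. Columns were matched to samples by genotype and replicate number.

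The quasi-likelihood test of edgeR 4.0.16, run in R 4.3.3, was fitted to the counts with robust moderation, TMM scaling, genotype as the only term and filterByExpr (minimum count 10, total 15). Adjusted p-values (Benjamini-Hochberg) cover all 13705 tested genes, and 0.05 was the threshold. The SE was taken as the size of the log2 fold change divided by the root of F, and intervals are at 95%. Levels are CPM of the library total, as the rule for these genes asks, and TMM factors lay between 0.983 and 1.01. A count of 0 allows a level of up to 3 counts, or 0.161 to 0.186 CPM, counting error only. Replicates were no repeats of each other (chi-square per gene 3.66 to 43.9). The test was tried on simulated counts of 13454 genes, 196 of them changed. It called 178 genes, 15 of them falsely, and recovered 71.1% of 2-fold and 94.9% of 4-fold changes. Changes under 2-fold were not simulated.

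The genes, the lists of other lipid genes and the marker lists (macrophage, fat cell, stromal, endothelial, proliferation) were chosen with earlier results of these data known, so lists are described by counts and medians with no test. Values in every library were planned for called members, the 3 of smallest p and the 2 of highest level per length in each enzyme group, the regulators and carrier, Scd1 and Scd2, and from other lists for called genes and the 2 of smallest p. Other members given in this way were chosen after their values were seen. Alternatives were other scalings and filters, DESeq2 1.42.0, limma-voom (limma 3.58.1), dropping robust moderation, a block for the replicate number, and each library left out.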

Additional observations from a re-analysis of the deposited data

How the results depend on the processing

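Over the scalings, filters, tools and moderation tried, Scd2 stayed the one member called lower and 0 were called higher. With the replicate number as a replicate block, 0 members were called lower (Scd2 log2 fold change -0.50, adjusted p = 0.106). Same-numbered libraries did not deviate together (correlations of 0.137, -0.106 and -0.192 for replicates 1, 2 and 3), and not every library correlated best with its own number. With single libraries left out, 0 to 1 members were called lower. Over all genes 366 were called, with 883 without a filter on low counts, 225 with a stricter filter, 656 with DESeq2, 331 with the block and 147 to 610 with single libraries left out. The fatty acid median ranged from -0.33 to -0.18 and the sterol median from -0.06 to 0.03 with single libraries left out, positive without WT replicate 3. Medians of other lists ranged from -0.045 to 0.068 for other fatty acid synthesis and from -0.156 to -0.067 for triglyceride synthesis and lipid droplets. That of other sterol and isoprenoid synthesis was 0.093 without a filter, where more genes entered.

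Members near no change turned sign. With a stricter filter, Fdft1 and Sc5d had log2 fold changes of -0.0037 each. With single libraries left out, the log2 fold change ranged from -0.114 to 0.065 for Fads1, -0.056 to 0.048 for Fdft1, -0.082 to 0.357 for Idi1, -0.148 to 0.056 for Lss, -0.111 to 0.051 for Nsdhl, -0.208 to 0.047 for Pmvk, -0.037 to 0.034 for Sc5d, -0.171 to 0.028 for Sqle and -0.15 to 0.041 for Stard4. The cause was not tested. With 3 libraries a group, p = 0.1 is the smallest that an exact permutation test gives. Genes of few counts, Fdps and Tm7sf2, had the widest intervals.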

Other observations

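Among proliferation markers, of 10 tested, 0 were called by edgeR, DESeq2 or limma-voom, and all had positive log2 fold changes (median 0.31). At an unadjusted p under 0.05 by edgeR, 5 were higher, against 5.68% of all tested genes. They were led by the replication helicase gene Mcm5 (41.5, 41.9 and 44.4 CPM in KO and 31.4, 34.3 and 26.5 CPM in WT, 0.45 ± 0.13, adjusted p = 0.134). Of the 12 stromal markers, Thy1, a surface glycoprotein used to identify MSCs, was called lower by edgeR, with 213, 199 and 201 CPM in KO and 341, 363 and 358 CPM in WT (-0.81 ± 0.10, adjusted p = 0.00141), and DESeq2 also called Col3a1 and Pdgfra lower. Cd44, Nt5e, Prrx1 and Eng had positive values (0.21, 0.20, 0.12 and 0.11) and were not called. The summed stromal level, mostly Col1a1 and Col1a2, was 69560, 43230 and 61000 CPM in KO replicates 1, 2 and 3 and 74890, 72590 and 63390 CPM in WT. Without Col1a1 and Col1a2 it was 8866, 7403 and 8567 CPM in KO and 10470, 9934 and 9808 CPM in WT, without overlap. Of the 4 fat cell markers tested, the fatty acid carrier gene Fabp4 was called lower (2.46-fold lower in KO, adjusted p = 0.0391 by edgeR), at 7.62, 14.7 and 6.23 CPM in KO and 22.01, 20.4 and 26.6 CPM in WT. Its call was lost with any one library left out except KO replicate 2 (edgeR adjusted p from 3.56e-06 to 0.151) and with the stricter filter (0.0518), and macrophages express it too. The other 3 were not called, with log2 fold changes of 0.39 ± 0.19 for Pparg, the main regulator of fat cell formation, -0.22 ± 0.23 for Cebpa and -0.74 ± 0.44 for Lipe. Pparg stood at 9.56, 12.1 and 12.4 CPM in KO and 8.17, 9.87 and 7.45 CPM in WT, with overlap. Of the 8 endothelial markers, Kdr alone could be tested (-1.23 ± 0.45, adjusted p = 0.241). The part of any of these in the lipid genes was not tested.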
